A study of Arabidopsis thaliana with 4 samples.

Results

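The tau class glutathione S-transferases (GSTU) described here are 9 Arabidopsis genes. GSTU1 (AT2G29490), GSTU2 (AT2G29480), GSTU3 (AT2G29470) and GSTU4 (AT2G29460) lie next to each other in a tandem cluster on chromosome 2. GSTU11 (AT1G69930), GSTU15 (AT1G59670), GSTU18 (AT1G10360), GSTU21 (AT1G78360) and GSTU22 (AT1G78340) lie on chromosome 1. They are 9 of the 16 GSTU genes that could be matched to a probe set, out of 28 GSTU genes in the family list and 22746 probe sets on the array. The 9 were picked by locus with their response to KUA1 induction already known, so their differences between the treatments are given as descriptions without a test.

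Glutathione S-transferases join the tripeptide glutathione to reactive, electrophilic molecules, which makes these more soluble and less toxic. The tau class is specific to plants and is best known for the detoxification of herbicides and other foreign compounds, and many of its genes respond to stress hormones, oxidized lipids and chemicals. The conjugates are carried into the vacuole by ABC transporters of the ABCC type. Tau genes often stand in tandem arrays that arose by gene duplication.

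RNA came from whole Col-0 seedlings of KUA1-IOX, a stable transgenic line in its T3 generation. The line carries XVE, a chimeric transcription factor that is made constitutively and enters the nucleus with estradiol, and KUA1, a MYB-like transcription factor, behind the LexA promoter that XVE activates. Seedlings aged 14 days were moved to liquid MS medium and given 15 µM estradiol in ethanol, or ethanol alone (mock), for 4 h. Each treatment had 2 biological replicates on 1 Affymetrix ATH1 array each, and both treatments used the line with the construct, although 1 label field calls the genotype of the mock samples a control. The number of transgenic lines, and of seedlings pooled per sample, was not given in the sources used here. Estradiol-treated seedlings without the construct are not among the 4 arrays, so effects of estradiol and of KUA1 cannot be told apart.

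Values are MAS5 signals, a linear brightness summary of the probes for 1 transcript, scaled on each array to a trimmed mean of 100.0. The median signal was 36.2 and 38.8 for mock and 37.5 and 36.1 for estradiol, and log2 signals of any pair of arrays correlated at 0.956 to 0.966 across probe sets, which are not independent replicates. The probe set of KUA1 read 203 and 170 in mock seedlings and 1887 and 3373 after estradiol. Both induced arrays were far above both controls, a log2 difference of 3.76 with a standard error (SE) of 0.29. Here and below, a log2 difference is the mean log2 signal after estradiol minus that of mock, with the SE of the limma fit across all probe sets. Probe sets are called dim in a treatment if their mean log2 signal there falls below its 40th percentile. Signals of different probe sets depend on their probes, so levels are compared only within a gene.

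Across the array, limma called 0 of 22746 probe sets at an adjusted p under 0.05 (0.00%), and the smallest adjusted p was 0.158. At an unadjusted p under 0.05 it found 1481 (6.51%), and the methods' t-test after Benjamini-Hochberg adjustment called 0. The thresholds of the study, at least 2-fold with an unadjusted t-test P under 0.05, were passed by 143 probe sets (0.629%) in the upward direction and 120 (0.528%) in the downward direction. Both estradiol arrays lay above both mock arrays at 16.1% of probe sets and below both at 18.0%. The median log2 difference of all probe sets was -0.01.

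All 4 genes of the tandem cluster had higher signals on both estradiol arrays than on either mock array. The differences were not of 1 size, and GSTU3 stood apart from its neighbours. Since the genes were picked on this contrast, nothing is read from setting that count beside the 16.1% of all probe sets. A change in the number of cells of a type and a change in RNA per cell cannot be told apart in such bulk samples of whole seedlings.

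GSTU3 had signals of 14.8 and 13.4 in mock seedlings and 209 and 141 after estradiol. The probe set was dim in mock seedlings and clearly bright on both induced arrays, with a wide gap between the treatments. Its log2 difference was 3.60 (SE 0.25), about 12.2-fold. A gene that starts near the background has a fold that leans on the dim values. With each array floored at its 40th percentile the log2 difference was 2.92, and with 32 added to every signal it was 2.14, in both cases the highest value of the 9 genes.

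GSTU4, the gene beside GSTU3 at the end of the measured run, had signals of 107 and 92.8 in mock seedlings and 346 and 354 after estradiol. The replicates of each treatment lay close together and the treatments were well apart. The log2 difference was 1.81 (SE 0.15), and the 4 comparisons of a single estradiol array with a single mock array gave 1.70 to 1.93, the narrowest span of the 9 genes.

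GSTU2, on the other side of GSTU3, gave 42.6 and 65.9 in mock seedlings and 170 and 141 after estradiol. The second mock array was the higher of the controls, yet it stayed well below both induced arrays. The log2 difference was 1.55 (SE 0.25), with single comparisons from 1.10 to 1.99. The annotation places another gene, AT2G29485, over GSTU2, and which of them the probes match was not tested.

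GSTU1 gave 196 and 327 in mock seedlings and 608 and 707 after estradiol. The second mock array was again the higher control and lay nearest to the induced arrays, without overlap. The log2 difference was 1.37 (SE 0.26), and single comparisons ran from 0.89 to 1.85, so GSTU1 was the member of the cluster that was not 2-fold higher in every one of them.

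**Figure D1:**
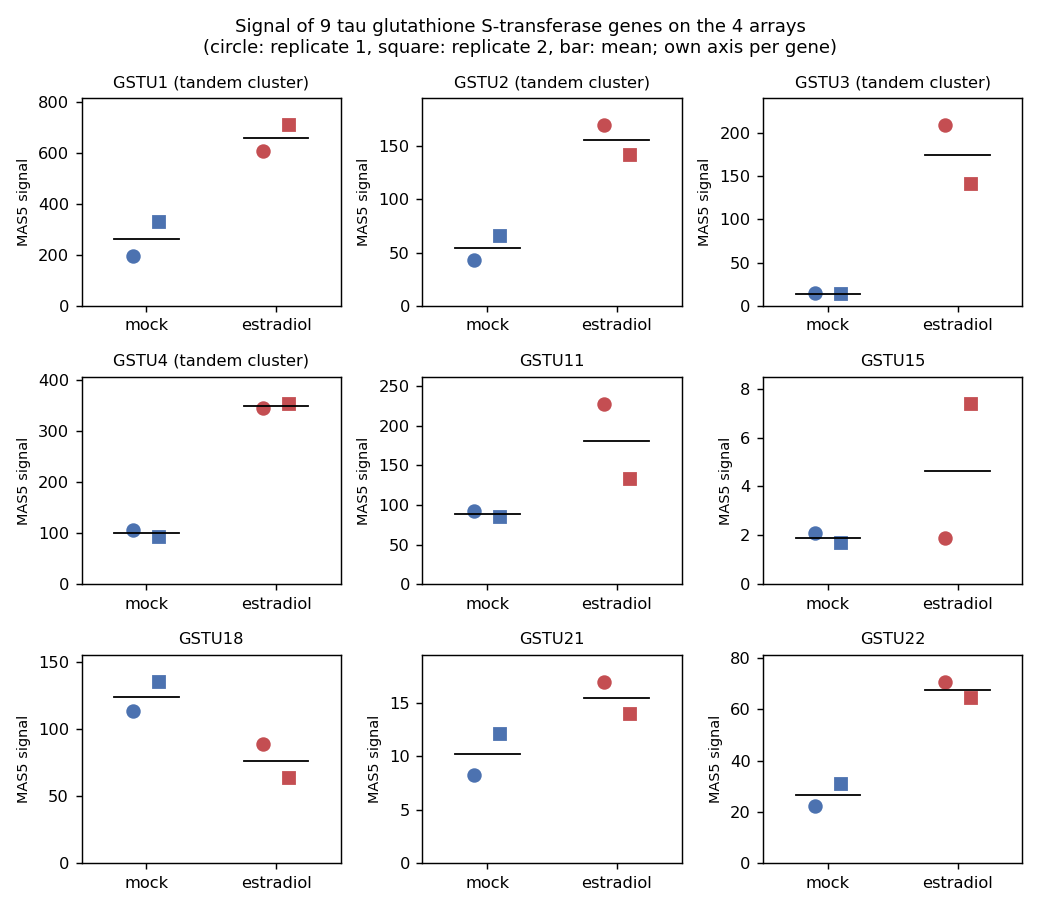
MAS5 signal (linear axis from 0, a separate axis for each gene) of the 9 tau genes on the 2 mock arrays (blue) and the 2 estradiol arrays (red), where circles are replicate 1, squares replicate 2 and bars the mean of a treatment. The cluster genes GSTU1 to GSTU4 are higher on both estradiol arrays, GSTU18 is lower on both, and the treatments overlap for GSTU15.

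The 5 genes on chromosome 1 did not share 1 pattern. On both estradiol arrays 3 of them (GSTU11, GSTU21 and GSTU22) were above both mock arrays, GSTU18 was below both, and GSTU15 overlapped. The shares over all probe sets were 16.1% above and 18.0% below, and nothing is read from the comparison. GSTU15 and GSTU21 were dim in both treatments.

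GSTU22 came closest to the cluster, with 22.2 and 30.8 in mock seedlings and 70.6 and 64.4 after estradiol. Both induced arrays were more than 2-fold above both controls, by log2 differences of 1.06 to 1.67 in single comparisons. Its mean difference was 1.37 (SE 0.25), equal to that of GSTU1 to 2 decimals. With 32 added to every signal it was 0.77.

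GSTU11 gave 92.0 and 85.6 in mock seedlings and 228 and 133 after estradiol. The controls were nearly equal, and the first induced array was much higher than the second, though both lay above mock. The log2 difference was 0.97 (SE 0.27). Without the first estradiol array it was 0.59, and without the second 1.36.

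GSTU21 read 8.28 and 12.1 in mock seedlings and 17.0 and 14.0 after estradiol. All 4 signals were low and the treatments were apart by little, with a log2 difference of 0.62 (SE 0.37). It was 0.34 without the first mock array and 0.17 with 32 added to each signal.

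GSTU15 read 2.08 and 1.70 in mock seedlings and 1.91 and 7.38 after estradiol. Only the second estradiol array was higher, and the first lay between the controls. The log2 difference of 1.00 (SE 0.77) came to 0.02 without the second estradiol array, so it rested on that array.

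GSTU18 went the other way, with 114 and 135 in mock seedlings and 89.2 and 63.3 after estradiol. Both induced arrays were below both controls, and the second was the lowest. The log2 difference was -0.72 (SE 0.22), with single comparisons from -1.09 to -0.35. Without the second estradiol array it was -0.48. The annotation has GSTU18 overlapping its neighbour GSTU17 (AT1G10370), for which no probe set was named.

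At least 2-fold in each of the 4 single comparisons was reached by 3 of the 4 cluster genes (GSTU2, GSTU3 and GSTU4) and by 1 of the other 5 (GSTU22), where 0.686% of all probe sets were that much higher. The same 4 genes passed the 2-fold and t-test thresholds. All 4 cluster genes and GSTU11 were matched only through the study's list of changed genes, which was chosen on these same samples. For that reason nothing is read from these counts or from the medians that follow. The median log2 difference was 1.68 in the cluster and 0.97 over the other members, which is 0.71 apart. The median of the other members was 0.59 without the first estradiol array and 0.17 with 32 added to each signal. The lists met at GSTU1 and GSTU22. The single comparisons of GSTU1 and GSTU2 overlapped with each other and with those of GSTU4 and of GSTU22, whereas those of GSTU4 lay just above those of GSTU22. GSTU3, at 3.25 to 3.96, lay above every single comparison of the other 8 genes.

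Relative to the mock mean of each gene, the cluster's median was -0.12 and 0.12 on the mock arrays, 1.74 on the first and 1.66 on the second estradiol array. The cluster genes ran from 1.26 to 3.89 on the first and from 1.42 to 3.32 on the second. The other members had medians of 0.76 and 0.59 on these arrays, and ran from -0.48 to 1.43 on the first and from -0.97 to 1.97 on the second. On both estradiol arrays the cluster had the higher median. The distance between them was 1.07 without the first estradiol array and 1.23 with 32 added to each signal, the settings that moved it by over 1.5 times.

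**Figure D2:**
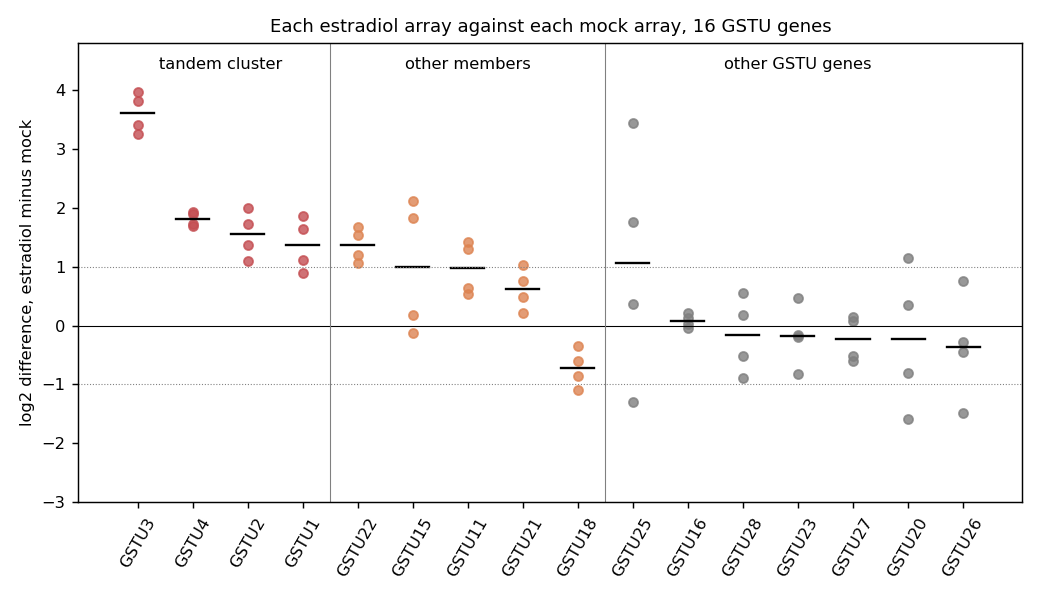
Log2 difference (vertical axis) of each estradiol array from each mock array for 16 GSTU genes, as 4 points per gene with the mean as a bar. Dotted lines mark 2-fold. The 4 cluster genes (red) lie wholly above 0, the other members (orange) are mixed, and each of the 7 other GSTU genes (grey) has points on both sides of 0.

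In the 7 measured GSTU genes outside the 9, the treatments overlapped. None of them had both estradiol arrays on 1 side of the mock arrays, where 16.1% of all probe sets were above and 18.0% below. None passed 2-fold with the t-test, against 0.629% of all probe sets upward and 0.528% downward. Limma called 0 of the 7, with 0 at an unadjusted p under 0.05, against 0.00% and 6.51% of all probe sets. Nothing is read from these counts for 7 genes. Their median log2 difference was -0.18, which was -0.51 without the first mock array and turned to 0.15 without the second and to 0.14 without the first estradiol array. They ran from -0.36 for GSTU26 to 1.07 for GSTU25. Between these came GSTU16 at 0.08, GSTU28 at -0.16, GSTU23 at -0.18, and GSTU20 and GSTU27, both at -0.22. GSTU23 and GSTU28 were dim in both treatments, GSTU25 in mock seedlings and GSTU26 after estradiol.

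GSTU25, which in Arabidopsis can detoxify the explosive TNT, had signals of 6.77 and 56.3 in mock seedlings and 72.9 and 23.0 after estradiol. The mock arrays were 8.32-fold apart, so the high mean difference (SE 1.05) is within the spread of the replicates. GSTU20, which binds the jasmonate-conjugating enzyme JAR1, gave 66.0 and 255 in mock seedlings and 147 and 84.4 after estradiol. Its controls were 3.86-fold apart and enclosed both induced arrays.

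How a gene came to be matched bears on these counts. Of the 16 genes, 11 have their locus in the platform's annotation table, and GSTU1, GSTU2, GSTU3, GSTU4 and GSTU11 are named only by the study's list of changed genes, which was chosen on these same samples. Those 5 could be seen only as changed. Among the 11 named by the platform table, 2 were above both mock arrays (GSTU21 and GSTU22), 1 was below (GSTU18) and 8 overlapped, with a median of -0.16. Over all probe sets, 16.1% were above and 18.0% below, so these counts are near the background. The 12 GSTU genes without a named probe set were not analysed here. Among them are GSTU5, GSTU6 and GSTU7, which come before GSTU4 in the gene order of chromosome 2. Whether probes of 1 tau gene also bind transcripts of a related gene was not tested.

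Other GSTU genes that lie near each other gave the following values. On chromosome 1 the run from GSTU20 to GSTU23 holds GSTU20 at -0.22 (SE 0.64) and GSTU21 at 0.62 (SE 0.37). It goes on with GSTU22 at 1.37 (SE 0.25) and GSTU23 at -0.18 (SE 0.44). GSTU22 and GSTU23 have 1 gene between them, and GSTU21 and GSTU23 were dim in both treatments. GSTU15 at 1.00 (SE 0.77) and GSTU16 at 0.08 (SE 0.15) are separated by 3 genes. GSTU25 at 1.07 (SE 1.05) adjoins GSTU26 at -0.36 (SE 0.54). The treatments overlapped for GSTU15, GSTU16, GSTU20, GSTU23, GSTU25 and GSTU26, so no contrast between neighbours is read from these values. In the run of GSTU1 to GSTU4 every measured gene was higher than mock, and this is how these genes were picked.

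The genes around the cluster were taken as the 5 nearest with a named probe set on each side, a choice made after the values of the cluster were known. AT2G29500, which follows GSTU1 directly, gave 106 and 203 in mock seedlings and 261 and 244 after estradiol. Its first mock array was low and the others were closer together, without overlap of the treatments, and the log2 difference was 0.78 (SE 0.31). It was the 1 gene of the 10 with both estradiol arrays above mock, where 16.1% of all probe sets were, so that count is not above the background.

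Beyond it no gene was higher on both estradiol arrays. AT2G29510 was at -0.54 (SE 0.20), the tubulin gene TUB7 at -0.17, the enolase gene ENOC at 0.07 and AT2G29590 at -0.07. On the side of GSTU4, where 11 genes without a named probe set come first, AT2G29370 was at 0.02, AT2G29360 at -0.24, AT2G29340 at -0.28, the tropinone reductase gene TRI at 0.07 and AT2G29320 at -0.62 (SE 0.15). Over the 10 genes the median was -0.12, and 4 had both estradiol arrays below mock, where 18.0% of all probe sets did. Of the 10, 0 passed 2-fold with the t-test and limma called 0, with 3 (AT2G29500, AT2G29510 and AT2G29320) at an unadjusted p under 0.05, where 6.51% of all probe sets were.

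**Figure D3:**
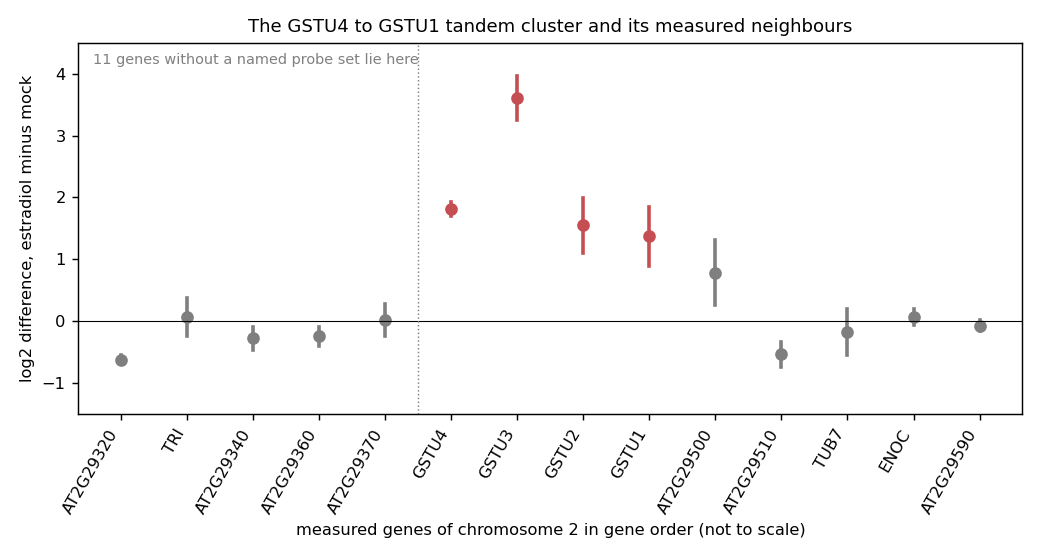
Mean log2 difference between estradiol and mock (points) with the range of the 4 single comparisons (bars) for GSTU4 to GSTU1 (red) and the 5 nearest named genes on each side (grey), in gene order along chromosome 2 and not to scale. The 4 tau genes run from 1.37 to 3.60, AT2G29500 lies at 0.78, and the 9 other neighbours lie between -0.62 and 0.07.

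The replicates differed more for some cluster genes than for others. The second mock array was above the first by 0.74 on the log2 scale for GSTU1, by 0.63 for GSTU2 and by 0.94 for the adjoining AT2G29500, and was below it for GSTU3 (-0.15) and GSTU4 (-0.20). Among probe sets that were not dim, the median distance between the mock arrays was 0.22 and the 90th percentile was 0.63. GSTU1 and AT2G29500 exceeded that percentile. The same array was the higher control for 6 of the 7 other GSTU genes and for 3 of the 5 other members. It also had the higher median signal of the 2 mock arrays (38.8 against 36.2), so nothing is read from these counts. Without the second mock array the cluster's median was 1.80, and without the first 1.57.

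Between the estradiol arrays, GSTU4 differed by 0.03, GSTU1 by 0.22, GSTU2 by -0.26 and GSTU3 by -0.57 (second minus first). GSTU11, at -0.77, lay past the 90th percentile of 0.62 among probe sets that were not dim. GSTU15, dim in both treatments, differed by 1.95, and 96.3% of all probe sets differed by no more. KUA1 itself was higher on the second array by 0.84. Of the cluster genes, GSTU1 and GSTU4 were higher on that array and GSTU2 and GSTU3 lower. The median distance between the estradiol arrays was 0.22 among probe sets that were not dim. Signs of differences near or below that size carry no direction, and a relation to the KUA1 signal was not tested.

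Likeness to the cluster was measured as the Euclidean distance between log2 signals, centred on each probe set's mean over the 4 arrays, for the 13641 probe sets outside the members whose mean over all arrays reached the 40th percentile. The nearest to the mean of GSTU1 to GSTU4 was MYB4, an R2R3-MYB repressor of phenylpropanoid genes, at a distance of 0.23. It had 49.6 and 64.4 in mock seedlings and 214 and 232 after estradiol. The next were AT3G22600, annotated as a lipid-transfer protein (0.35), a probe set without a named gene (0.38), the ABC transporter gene ABCG40 (0.38) and YLS9, an NDR1/HIN1-like gene (0.41). Their log2 differences ran from 1.76 to 2.14. Since 4 arrays in 2 treatments carry little more than the size of 1 difference, this order is a description.

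By the same measure GSTU4 ranked 7, GSTU2 ranked 11 and GSTU1 ranked 40 in nearness to the mean of the other 3 cluster genes, and GSTU3, with its much larger difference, ranked 12647. Of the other members, GSTU22 ranked 13, GSTU11 103, GSTU21 250, GSTU15 1847 and GSTU18 13299 in nearness to the cluster's mean.

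**Figure D4:**
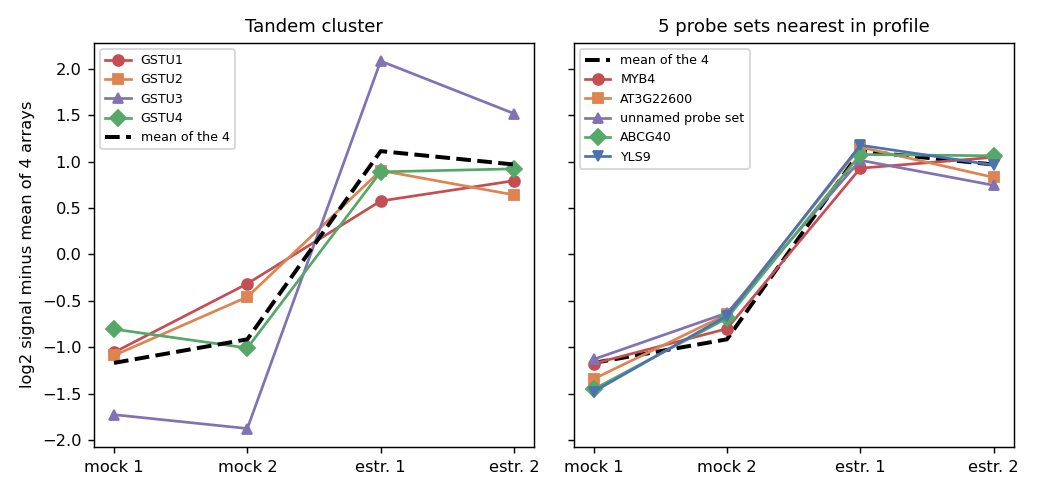
Log2 signal on the 4 arrays minus each probe set's own mean (vertical axis) for the 4 cluster genes at left and the 5 nearest probe sets at right, with the cluster's mean dashed. Lines only join points of 1 probe set and give the replicates no order. GSTU3 spans the widest range, and the nearest probe sets stay within a distance of 0.41 of the dashed line.

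Few genes of the wider glutathione system had a named probe set. Of the 13 phi class genes, GSTF4 (0.19) and GSTF13 (-0.00) were measured, and both were dim and overlapped. Of 12 genes in other classes only the lambda class gene GSTL3 was measured, at -0.08. Of 10 genes for glutathione supply and conjugate transport, the glutathione reductase genes GR1 (0.42) and GR2 (0.03) were measured. GR1, the cytosolic form, gave 449 and 378 in mock seedlings and 456 and 668 after estradiol, with the first estradiol array barely above the controls. Limma called 0 of these 5 genes, with 0 at an unadjusted p under 0.05. Of all probe sets it called 0.00%, with 6.51% at an unadjusted p under 0.05, so nothing is read from these counts. None of 8 genes for TGA factors and their partner SCL14, which in Arabidopsis act on detoxification genes, had a named probe set.

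Markers of root and shoot could be followed for 3 genes, and without detection calls their signals do not show that a transcript was present. Of 9 root markers 2 were measured, PYK10, a root beta-glucosidase (-0.23), and EXPA7, a root hair expansin (-0.80). PYK10 gave 1994 and 2446 in mock seedlings and 1861 and 1906 after estradiol. EXPA7 gave 35.1 and 55.2 in mock seedlings and 27.7 and 22.9 after estradiol. Both were lower on both estradiol arrays, EXPA7 by more. Of all probe sets 18.0% were lower in this way, so nothing is read from the count of these 2 markers. Their sum, nearly all of it PYK10, was 2029 and 2501 in mock seedlings and 1889 and 1929 after estradiol, and their part in the GSTU differences was not tested. Of 8 shoot markers the Rubisco activase gene RCA was measured, at -0.11, and its treatments overlapped (2622 and 2693 against 2298 and 2624).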

How the data were processed

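The values are signal intensities that the authors deposited, 1 per probe set and array, summarised with MAS5 (no version was given in the sources used here) and scaled to a trimmed mean of 100.0, leaving out the lowest and highest 2%. No detection calls or scan dates were used. Of 22810 probe sets, 64 controls were left out. Log2 signals, without an offset, were fitted in R 4.3.3 with limma 3.58.1 (lmFit, eBayes with an intensity trend, no block) on all 4 arrays, with Benjamini-Hochberg adjustment over 22746 probe sets. The methods' t-test (equal variances, two-sided) was run on log2 signals beside 2-fold between geometric means. On simulated data with known differences, only the median estimates of the fit were checked, not its calls. Figures were drawn with matplotlib 3.10.9 in Python 3.11.15.

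Probe sets were matched to loci through the platform table or, where it names none, the study's Supplementary Data 1, from which loci and annotation were used and no values. Gene order and overlaps came from RefSeq gene records. Members and lists were chosen with earlier results of these data known. The genes named are the 9 members, all other measured GSTU genes, KUA1, up to 4 measured genes of each other list with the smallest limma p, and the 5 nearest profiles. The flanking genes lie outside that rule. The replicates are called biological in the methods, and a p-value reflects only how far these samples spread. The number of arrays limits the precision. Sequences of the genes and probes were not used here. Alternatives were other scalings, an offset of 32, a floor, a filter on dim probe sets, limma without the trend, a replicate block, each array left out and linear ratios.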

Additional observations from a re-analysis of the deposited data

How the results depend on the processing

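Quantile normalization, median centring, the floor and linear ratios kept the median of the cluster within the spread of its replicates. With 32 added to each signal the cluster's median was 1.40, that of the other members 0.17 and the distance between them 1.23. The ratio of mean linear signals gave a distance of 0.64. With 1 array left out, the cluster's median stayed between 1.57 and 1.80, that of the other members between 0.59 (without estradiol replicate 1) and 1.03, and the distance between 0.55 (without mock replicate 1) and 1.07 (without estradiol replicate 1). The median of the 7 other GSTU genes ran from -0.51 without mock replicate 1 to 0.15 without mock replicate 2. Under the floor GSTU15 and GSTU21 had no value, being at it on all 4 arrays.

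The number of probe sets past 2-fold and the t-test was 263, and 36 with 32 added, 77 under the floor and 76 without dim probe sets. The replicate numbers do not pair the samples by the labels. With a replicate block 144 passed, limma called 0 and the smallest adjusted p was 0.109. As the replicates' deviations correlated at -0.13 between treatments, the crossed pairing was run after seeing the data, and 152 passed and limma called 3. The cause of these changes was not tested. With 2 arrays per treatment, differences of low signals such as those of GSTU15 and GSTU21 could not be told from noise.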
